A study of Rattus norvegicus with 6 samples.

Results

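Resident macrophages are the phagocytes that settle in a tissue, and 10 genes that mark them or carry out their work were followed here in rat subchondral bone: C1qa, C1qb, C1qc, Cd68, Cd163, Mrc1, Adgre1, Marco, Vsig4 and Siglec1. The genes were chosen by name. All 10 had a single row each in a table of 30600 rows with values, of which 22050 were rat Ensembl genes. The table covers 6 RNA-seq libraries of subchondral bone, the bone under the joint cartilage, which carry the titles S23, S21, S20, S13, S12 and S10. The series asks which molecules link low temperature and arthritis, but the labels give neither a temperature nor any other treatment, strain, sex or age for a library. No library was therefore placed in a group, no groups were compared, and each library's own value is given. The sources used here do not say whether each library stands for its own animal.

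In marrow, macrophages sit at the centre of erythroblastic islands, where they take up the nuclei that maturing red cells expel, and they clear aged red cells and recycle their iron. They also secrete C1q, the recognition unit of the classical complement pathway, which is built from A, B and C chains and tags immune complexes and dying cells for removal. Cd163, Mrc1, Siglec1 and Vsig4 encode surface receptors for haemoglobin, sugars, sialic acid and complement fragments, in that order. Adgre1 encodes an adhesion-type receptor, Marco a collagen-like scavenger receptor and Cd68 a glycoprotein of lysosomes. Several of these genes are shared with other cells: Cd68 is also made by monocytes and osteoclasts, and Mrc1 by sinusoidal endothelium.

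The promoters of 4 genes are shown because C1qa and C1qb lie in a cluster, with C1qc between them, and had similar patterns over the libraries, as did Cd163 and Mrc1, which lie on different chromosomes. Each run is the 250 bases before the annotated start, written 5′ to 3′ on the gene's strand, from RefSeq on the build GRCr8, which is not known to be the build behind the expression values. Capitals mark GAGGAA or its reverse complement TTCCTC, letters found in sites of the myeloid factor PU.1. They also mark TGCTGAC or GTCAGCA, letters found in sites of MAF-type factors. Other forms of these sites were not searched, so a window without capitals may still hold them.
C1qa, chr5:154419934-154420183, minus strand: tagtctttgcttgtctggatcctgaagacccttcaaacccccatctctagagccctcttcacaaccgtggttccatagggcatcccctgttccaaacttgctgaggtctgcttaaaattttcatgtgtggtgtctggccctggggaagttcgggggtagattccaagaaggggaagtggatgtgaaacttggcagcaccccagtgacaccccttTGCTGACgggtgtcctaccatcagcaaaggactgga
C1qb, chr5:154407828-154408077, minus strand: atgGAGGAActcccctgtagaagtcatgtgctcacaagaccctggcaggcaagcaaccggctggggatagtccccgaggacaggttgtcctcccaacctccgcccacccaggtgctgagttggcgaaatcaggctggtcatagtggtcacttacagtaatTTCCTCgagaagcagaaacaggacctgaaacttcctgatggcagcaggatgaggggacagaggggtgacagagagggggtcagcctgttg
Cd163, chr4:158770524-158770773, plus strand: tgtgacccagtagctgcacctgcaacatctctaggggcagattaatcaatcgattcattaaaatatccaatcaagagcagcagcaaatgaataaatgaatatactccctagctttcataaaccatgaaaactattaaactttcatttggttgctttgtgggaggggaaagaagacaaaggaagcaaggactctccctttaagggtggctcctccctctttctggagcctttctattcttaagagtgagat
Mrc1, chr17:82157475-82157724, plus strand: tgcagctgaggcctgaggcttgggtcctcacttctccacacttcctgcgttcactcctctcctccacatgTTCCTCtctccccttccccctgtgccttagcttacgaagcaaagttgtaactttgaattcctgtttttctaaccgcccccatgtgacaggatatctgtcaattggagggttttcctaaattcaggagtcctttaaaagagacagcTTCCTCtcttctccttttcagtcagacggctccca
The C1qb window held the PU.1 letters 2 times, at positions -247 to -242 and -90 to -85 counted from the start. The Mrc1 window also held them 2 times, at -180 to -175 and -35 to -30. C1qa and Cd163 held none, and C1qa held the MAF letters at -36 to -30. The table had 8 of the 10 promoters. The PU.1 letters were in 5 of these 8 (Adgre1, C1qb, Cd68, Marco and Mrc1) and in 23.2% of the 27457 promoter windows of the same length, and the MAF letters in 1 of 8 and in 3.55%. Both strands were searched, and the 2 motifs do not overlap at any place in the windows shown. These matches describe letters only: Marco, which had no counts, holds the PU.1 letters, and C1qa, the highest of the 10, does not.

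Total counts were 39990624 to 59200981 per library. Of the gene lists set beside the 10 genes, those of red cells and granulocytes had the highest summed FPKM. The 7 erythroid genes measured summed to 120236 FPKM in S23 and 324180 FPKM in S10. The 10 neutrophil genes summed to 17204 FPKM in S20 and 74221 FPKM in S23. These sums are not shares of all RNA. FPKM count fragments relative to transcript length and library size, so they allow levels of different genes to be set side by side. Of 8 osteoclast genes 6 had a median of 1 FPKM or more, led by Ctsk and Acp5 at 407 and 262 FPKM. Calcr and Ocstamp of the same list were below it, at 0.262 and 0.449 FPKM. Which cells made these transcripts was not tested. The libraries differed by gene length. Genes whose median over the libraries was 1 FPKM or more are called expressed below (11625 genes). Of these the 2906 longest, at 3511 bases or more, deviated from their medians over the libraries by a median of -0.58 log2 units in S10, 0.31 in S12 and 0.32 in S20. The 2907 shortest, at up to 1467 bases, deviated by 0.04 in S10, -0.05 in S12 and -0.18 in S20. Cd163, Mrc1, Adgre1 and Siglec1 fall in the long class, and C1qa, C1qb, C1qc and Cd68 in the short one.

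The C1q chains were the most abundant of the 10 genes. C1qa (ENSRNOG00000012807), the A chain, had 225 FPKM in S10, 202 in S12, 174 in S13, 165 in S21, 132 in S20 and 125 in S23. C1qb (ENSRNOG00000012749), the B chain, had 136 FPKM in S12, 104 in S10, 102 in S13, 94.2 in S21, 83.2 in S20 and 77.2 in S23. C1qc (ENSRNOG00000012804), the C chain, had 168 FPKM in S12, 132 in S13, 120 in S10, 119 in S21, 96.9 in S20 and 93.2 in S23. S20 and S23 were thus the lowest libraries of every chain, and the highest was S10 for C1qa and S12 for the other chains. The medians of 169, 98.3 and 120 FPKM exceeded those of 96.5%, 94.0% and 95.1% of expressed genes. Together the chains took 0.0353% (S23) to 0.0584% (S12) of all counts. In these bulk samples fewer cells of a type and less RNA per cell cannot be told apart.

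The highest value of each chain was about 1.8 times its lowest, at folds of 1.80 for C1qa, 1.76 for C1qb and 1.80 for C1qc. Which library led depended on scaling. When the FPKM were rescaled with TMM or median-ratio factors, which set the bulk of genes equal between libraries, S10 was the highest for all 3 chains, and the range of C1qa on the log2(FPKM + 1) scale grew from 0.85 to 1.31 and 1.33. These factors moved the median of all expressed genes by 0.38 and 0.40 log2 units in S10 and by -0.23 in S12. C1qa was highest in S10 and lowest in S23 under the deposited values, both scalings and correction for gene length.

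The ratio of the chains within a library does not depend on how libraries are scaled to each other. C1qc exceeded C1qb in each library, by a ratio of 1.29 in S13, 1.27 in S21, 1.24 in S12, 1.21 in S23, 1.17 in S20 and 1.16 in S10. C1qa exceeded C1qb by 2.16 in S10, 1.75 in S21, 1.70 in S13, 1.62 in S23, 1.59 in S20 and 1.49 in S12. The order of the chains was therefore A above C above B in all 6 libraries. S10 stood apart for the A chain, since its ratio of C1qa to C1qc was 1.87 against 1.20 to 1.38 in the other libraries. The implied transcript lengths of the chains were close, at 1145, 1183 and 1191 bases. The chains fell in the same length bin, so the length correction, which shifts genes of a bin alike, could not change these ratios. C1qb, C1qc and C1qa follow one another in that order on GRCr8, and the protein-coding genes on either side, Ephb2 and Epha8, had medians of 0.128 and 0.00975 FPKM.

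**Figure D1:**
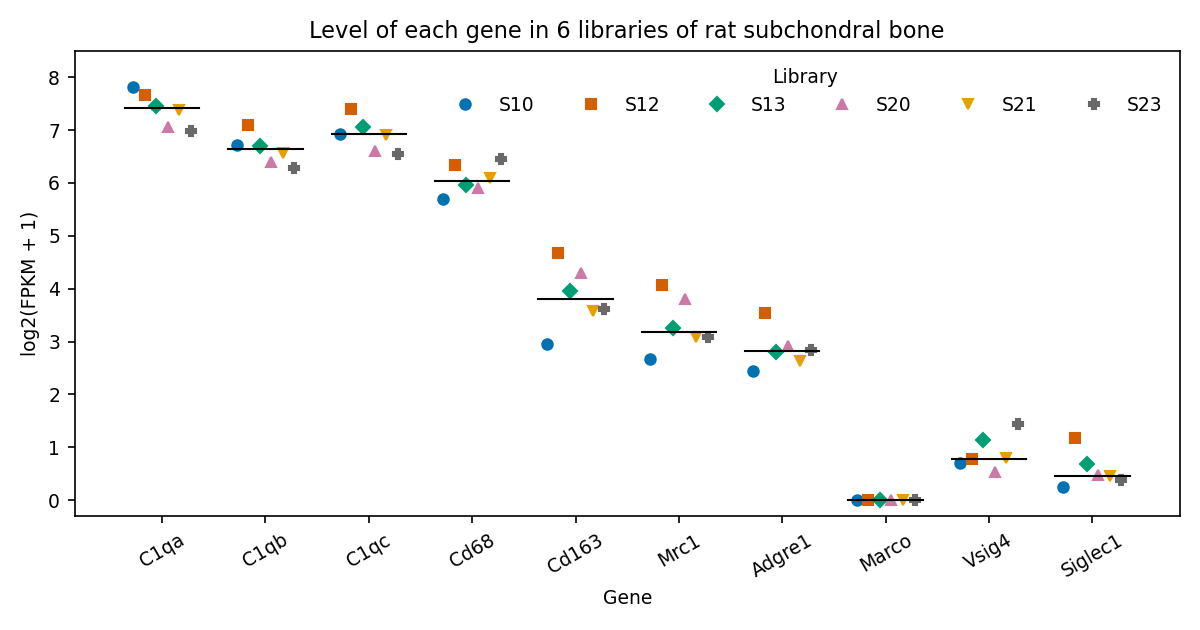
Points give the level of each gene on the log2(FPKM + 1) scale in each of the 6 libraries, by colour and shape, and bars the median over the libraries. The C1q chains and Cd68 lie highest, Cd163, Mrc1 and Adgre1 in the middle with S10 lowest and S12 highest, and Marco is at 0 in every library.

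Cd68 (ENSRNOG00000037563), a lysosomal glycoprotein used as a general macrophage marker, came next. It had 87.1 FPKM in S23, 80.0 in S12, 67.2 in S21, 61.6 in S13, 58.8 in S20 and 51.0 in S10. Its median of 64.4 FPKM exceeded that of 90.4% of expressed genes. Unlike the C1q chains it was highest in S23, under the deposited values and each alternative scaling, while its lowest value lay in S10 and, under TMM and median-ratio scaling, in S20. Sums of monocyte and neutrophil genes were also highest in S23. The 7 monocyte genes reached 16538 FPKM there and at most 8890 FPKM elsewhere. Lyz2 alone made up 15399 FPKM of the sum in S23, and 5 of the 7 genes were highest there. The 8 osteoclast genes reached 851 FPKM in S23 against at most 775 elsewhere. The part of these cells in the Cd68 level was not tested. Set against Cd68 within the library, C1qb had a ratio of 0.887 in S23, 1.40 in S21, 1.41 in S20, 1.66 in S13, 1.70 in S12 and 2.04 in S10. S23 was the lowest for all 3 chains, with 1.43 for C1qa and 1.07 for C1qc, and S10 the highest, with 4.41 and 2.36.

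The scavenger receptors Cd163 and Mrc1 were lower, and in the deposited values their ranges were wider than those of the C1q chains. Cd163 (ENSRNOG00000010253), which takes up haemoglobin bound to haptoglobin, had 24.7 FPKM in S12, 18.5 in S20, 14.6 in S13, 11.2 in S23, 11.0 in S21 and 6.80 in S10. Mrc1 (ENSRNOG00000018251), the mannose receptor, had 15.7 FPKM in S12, 12.9 in S20, 8.52 in S13, 7.52 in S23, 7.46 in S21 and 5.37 in S10. Both were lowest in S10 and highest in S12, then S20, with folds of 3.63 and 2.92 between the extremes. Their ratio stayed within 1.27 (S10) and 1.71 (S13). On the log2(FPKM + 1) scale the ranges were 1.72 for Cd163 and 1.39 for Mrc1. S10 is also the library in which long genes were low, and S12 and S20 those in which they were high. After correction for gene length the ranges fell to 0.84 and 0.69, and under TMM scaling to 1.16 and 0.84. The order against the C1q chains then turned: after length correction both ranges were below those of all 3 chains (0.90, 0.89 and 0.93), and under TMM scaling Mrc1 was below all 3 and Cd163 below C1qa. S12 remained the highest library of both genes under each of these settings, and the lowest of Mrc1 became S23 after length correction and under median-ratio scaling.

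Adgre1 (ENSRNOG00000046254), an adhesion-type receptor that marks rodent macrophages, had 10.6 FPKM in S12, 6.54 in S20, 6.21 in S23, 5.96 in S13, 5.22 in S21 and 4.45 in S10. S12 stood above the other 5 libraries, which spanned 4.45 to 6.54 FPKM. Its range was 1.09, and without S12 it was 0.47. The range was 0.65 under TMM scaling and 0.63 after length correction, with S12 still highest. Relative to Cd68 the 3 receptors were lowest in S23: the ratio was 0.129 there for Cd163, 0.0864 for Mrc1 and 0.0713 for Adgre1. The highest ratios were 0.315 (S20) for Cd163, 0.219 (S20) for Mrc1 and 0.132 (S12) for Adgre1, and with length correction 0.251 (S12), 0.163 (S20) and 0.120 (S10). S12 also had the highest sum of muscle and fat genes, 489 FPKM over 7 genes against 81.8 to 249 in the other libraries, with all 7 highest there, and of dendritic and B cell genes, 702 FPKM against 350 to 507. The endothelial genes, which bear on Mrc1, summed to 30.4 to 37.2 FPKM, also highest in S12. The part of these tissues in the S12 values was not tested.

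**Figure D2:**
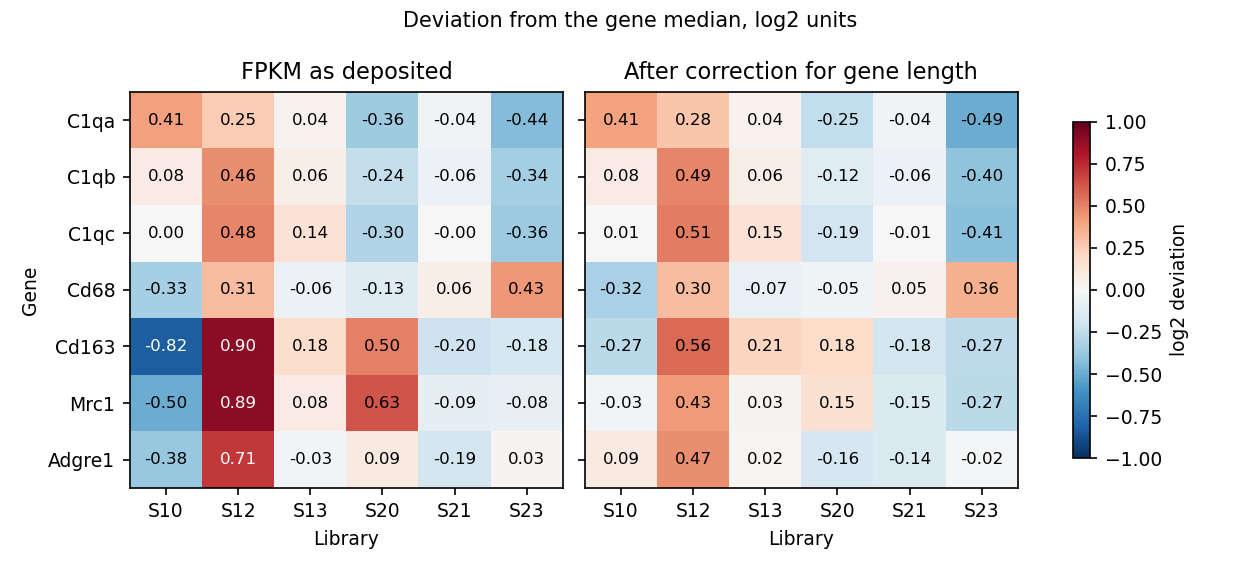
Each cell gives the deviation of a gene from its median over the 6 libraries in log2 units, for the 7 expressed genes, in the deposited FPKM (left) and after correction for gene length (right). Cd163 moves from -0.82 to -0.27 in S10 and from 0.90 to 0.56 in S12, whereas the C1q chains hardly change in these libraries.

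The remaining 3 genes were low or without counts. Siglec1 (ENSRNOG00000021243), the sialic acid receptor that marks macrophages of erythroblastic islands, had 0.191 FPKM in S10, 0.301 in S23, 0.367 in S21, 0.396 in S20, 0.615 in S13 and 1.26 in S12. These values rest on 58 counts in S10 and 415 in S12, or 1.45 (1.10 to 1.87) and 9.39 (8.51 to 10.3) CPM (counts scaled to the library total) with exact 95% binomial intervals (Clopper-Pearson), which cover counting error only. The fold of 6.59 was the widest of the 9 genes with counts. Siglec1 has the longest transcript of the 9, at an implied 7618 bases, and the part of the length difference between libraries in its values was not tested. Within a library its ratio to Cd68 was 0.0157 in S12 and 0.0035 to 0.0100 elsewhere, lowest in S23.

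Vsig4 (ENSRNOG00000038132), a receptor for fragments of complement C3 on tissue macrophages, had 1.72 FPKM in S23, 1.20 in S13, 0.731 in S21, 0.724 in S12, 0.628 in S10 and 0.442 in S20. The counts were 28 to 126. In CPM S23 had 2.72 (2.27 to 3.24) and S13 1.87 (1.52 to 2.27), above the 0.687 (0.457 to 0.994) of S20, while the exact intervals of S10, S12 and S21 overlapped one another and that of S20, and those of S23 and S13 met. The highest value lay in S23 and the lowest in S20 under each scaling. Intervals that overlap or meet neither set 2 libraries apart nor show them alike, and no test between libraries was run. On GRCr8 the span of Vsig4 overlaps that of Heph, which had 1.16 FPKM in S21 and 5.80 FPKM in S12. Whether the counting used strand is not given, so reads of the 2 genes may not be fully separated.

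Marco (ENSRNOG00000049303), a collagen-like scavenger receptor of macrophages in the spleen and lung, had 0 counts in every library. Where 0 counts were seen up to 3 remain possible (a 1-sided 95% limit, for counting error only). That is 0.0507 CPM in S21 and 0.0750 CPM in S10. Whether reads of Marco were missed in mapping or counting was not tested. The genes of the list of other scavenger receptors were mostly measured: of 11 with a row, 10 were expressed, led by Clec7a at 60.8 FPKM, Scarb1 at 25.3, Scarb2 at 11.1 and Colec12 at 10.2. Msr1, the class A relative of Marco, had 1.08 to 3.05 FPKM.

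Of the 10 genes, 7 were expressed at a median of 1 FPKM or more and 3 (Marco, Vsig4 and Siglec1) were not. A range of 1 on the log2(FPKM + 1) scale was reached by Cd163, Mrc1 and Adgre1, 3 of the 10 genes and 3 of the 7 expressed ones. Among all expressed genes 36.6% reached it. This scale understates differences of low genes: Vsig4 and Siglec1, with folds of 3.88 and 6.59 in FPKM, had ranges of 0.91 and 0.92. The median range of the 7 was 0.85, beside 0.83 for all expressed genes, so in the deposited values the spread was near that of genes at large. Under the other scalings it was wider than that of genes at large. The medians were 0.85 against 0.72 under TMM scaling and 0.86 against 0.72 under median-ratio scaling. With no minimum level the share was 20.5% of all rat Ensembl genes. A pseudocount of 0.1 in place of 1 brought Vsig4 and Siglec1, which are not among the expressed genes, past the mark as well, 5 of the 10. Of the 7 expressed genes 3 reached it in that setting, beside 48.6% of all expressed genes. Their median range was then 0.85, below the 0.98 of all expressed genes. Under TMM scaling C1qa and Cd163 reached the mark, as they did under median-ratio scaling, where the shares over all expressed genes were 29.4% and 29.5%, and after length correction none of the 10 did, beside 19.8% of expressed genes, with a median range of 0.84 for the 7 against 0.58 for all expressed genes. In that setting Adgre1 had the smallest range, 0.63, and C1qc the widest of the 7, 0.93. S12 was the highest library for 6 of the 9 genes with counts in the deposited values, for 4 under TMM and median-ratio scaling and for 5 after length correction. The share of all expressed genes that were highest in S12 was not counted. TMM scaling moved the median of all expressed genes by -0.23 log2 units in S12. The S12 counts therefore cannot be read as particular to the macrophage genes.

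**Figure D3:**
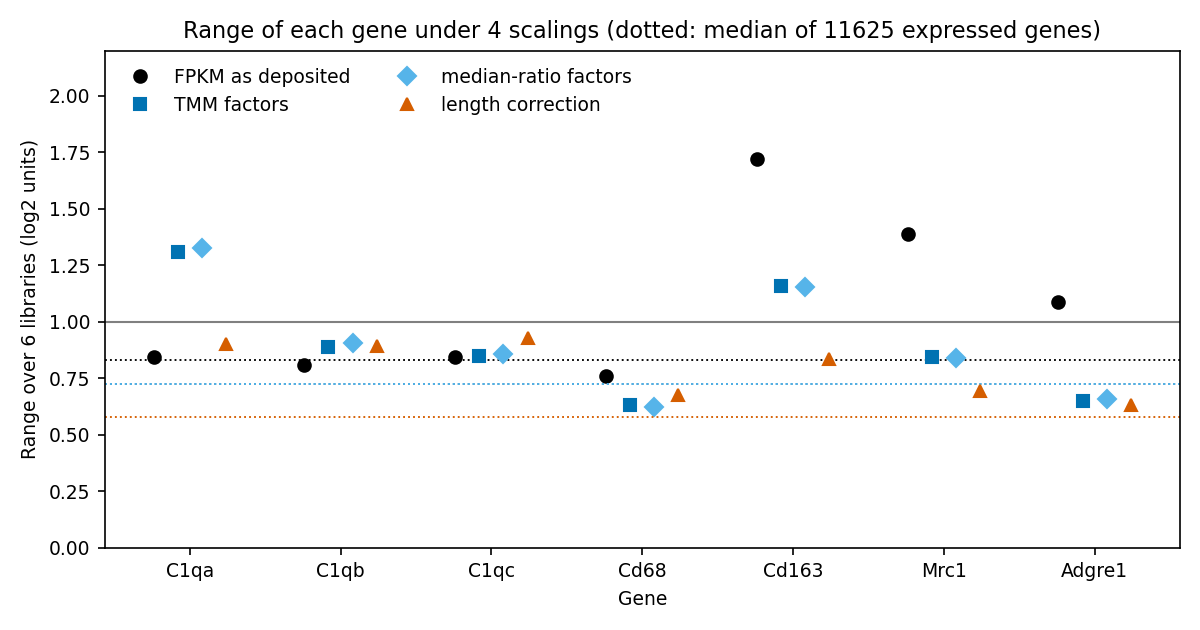
Points give the range of the 7 expressed genes over the 6 libraries in log2 units under the deposited FPKM, TMM factors, median-ratio factors and length correction. The grey line marks 1, dotted lines the median range of all 11625 expressed genes in each setting. Cd163, Mrc1 and Adgre1 lie above 1 in the deposited values and below it after length correction, while C1qa rises to 1.31 and 1.33 under the 2 scaling factors.

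Other macrophage genes gave the setting for these values. Of 18 genes on the list of other macrophage genes, 17 had a row and 16 were expressed, led by Tyrobp, an adaptor of activating receptors, at a median of 465 FPKM, the lipid carrier Apoe at 198, Aif1 at 101 and the antibody receptor Fcgr1a at 52.9. A range of 1 was reached by 8 of the 16 in the deposited values and after length correction, and by 9 under TMM scaling. Among all expressed genes the shares in these settings were 36.6%, 19.8% and 29.4%. S12 held the highest value of 6 of the 16 and S10 the lowest of 7. For the 7 expressed genes followed here these counts were 5 and 4. How often S12 was highest or S10 lowest over all expressed genes was not counted. In the list of red cell and iron recycling, 10 of 11 genes were expressed and 4 reached a range of 1. Its 4 highest genes were Hp (haptoglobin, the ligand of Cd163 when it carries haemoglobin) at a median of 457 FPKM, Hmox1, the enzyme that opens the haem ring, at 132, Cd47, the signal that protects a cell from being engulfed, at 129, and Blvrb at 108. Hmox1 had its highest value in S12, 199 FPKM, and its lowest in S23, 68.8 FPKM, as C1qb and C1qc did in the deposited values. Spic and Vcam1 of the same list were also highest in S12 and lowest in S23, whereas Cd47, Hp and Blvrb were not. Cd47 was the reverse, with 121 FPKM in S12 as its lowest and 154 in S23 as its highest. Hp was highest in S23, at 864 FPKM, and lowest in S13, at 134. Blvrb was highest in S20, at 140 FPKM, and lowest in S10, at 76.2.

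The partners of C1q in the classical pathway had lower medians than its chains, although in S23 C5ar1 reached 125 FPKM and C3 83.0 FPKM, above the 77.2 FPKM of C1qb there. Of the 12 genes on that list all had a row and 10 were expressed. Of these, 8 had a range of 1 or more, 4 under TMM scaling and 3 after length correction. Among all expressed genes the shares were 36.6%, 29.4% and 19.8%. S10 was the lowest library of 8 of the 10 in the deposited values, and TMM scaling moved the median of all expressed genes there by 0.38 log2 units. Among the highest of the list were C5ar1, a receptor for a complement fragment, at a median of 69.7 FPKM, C3 at 49.3 and the C1 inhibitor gene Serping1 at 38.3. The proteases that bind C1q, C1r and C1s, had 8.41 to 18.7 and 5.34 to 14.3 FPKM, both lowest in S10, where C1qa was highest. Among transcription factors and growth signals of macrophages 9 of 10 were expressed and 5 reached a range of 1. Spi1, which encodes PU.1, had a median of 92.3 FPKM, Csf2ra 77.0, Irf8 41.3 and Nr1h3 10.8. Spi1 was highest in S23, with 157 FPKM, the library in which the C1q chains were lowest.

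The genes most like the C1q chains were sought by the smallest root mean square difference, over the 6 libraries, between a gene's deviation from its median on the log2(FPKM + 1) scale and the mean deviation of the 3 chains. Gcgr, the glucagon receptor gene, had 0.0793, Ramp3, a partner of calcitonin-type receptors, 0.0813, Akr1e2 0.0838, Bckdhb 0.0966 and Rec114 0.0997. Their medians were 3.66, 10.1, 4.33, 10.5 and 3.04 FPKM. All 5 were highest in S12, and each was lowest in S23 except Ramp3, which was lowest in S20. Among the macrophage genes followed here the differences were 0.35 for Adgre1, 0.40 for Cd68, 0.52 for Mrc1 and 0.57 for Cd163, which ranked 3699, 5537, 8731 and 9567 of the 11625 expressed genes.

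**Figure D4:**
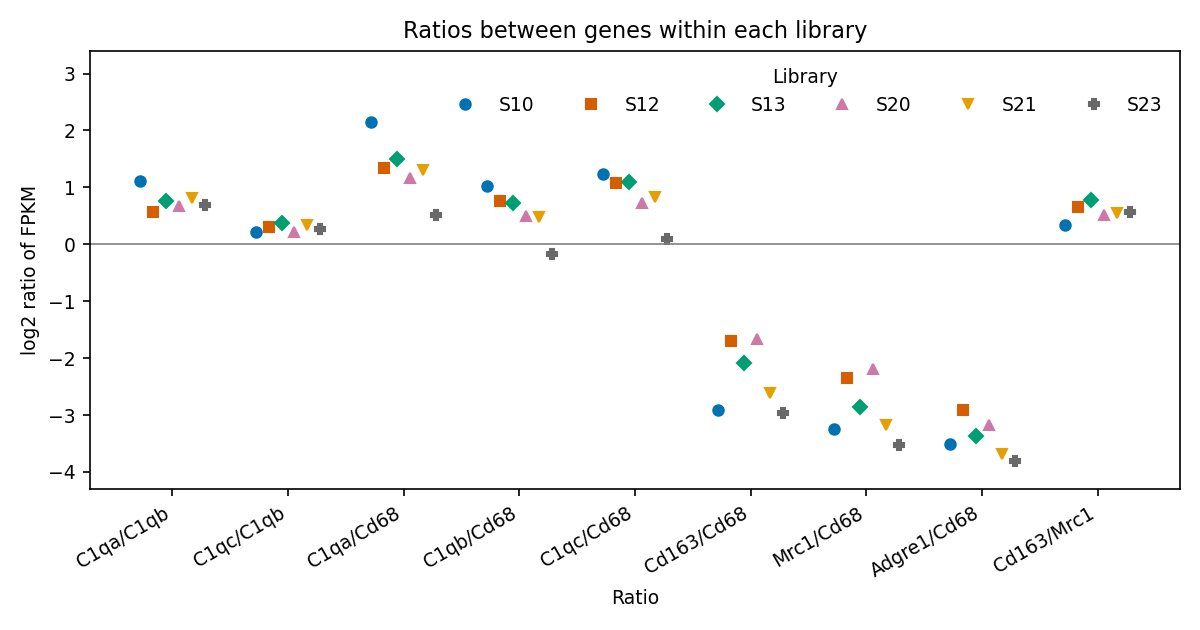
Points give the log2 ratio of FPKM between pairs of genes within each library. The ratios between C1q chains and of Cd163 to Mrc1 spread less than the 6 plotted ratios to Cd68, for each of which S23 is the lowest library, and S10 stands above the other libraries for C1qa over C1qb.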

How the data were processed

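RNA-seq of 6 rat subchondral bone libraries was used. Extraction was with an RNeasy kit and library construction with a SMARTER mRNA-Seq kit, per the labels' protocols. The deposited counts are unnormalized whole numbers. The FPKM values, per the file headers, come from the authors and do not share a common sum. Aligner and counting tool were not given in the sources used here. The submitters' processing notes name GRCm38 and mm10, both of mouse, whereas the row IDs are those of rat Ensembl, so no coordinates are given for expression values. Of 30610 rows, 10 held no values and were left out.

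All 6 libraries are unassigned, so no group test was run. Values are per library, or the lowest, median and highest. The spread is the range of log2(FPKM + 1), which understates differences of low genes. Gene length is the length implied by count, FPKM and library total. The length correction subtracted each library's median deviation in 20 length bins. Alternatives were TMM factors (edgeR 4.0.16), median-ratio factors, a pseudocount of 0.1, no FPKM minimum, counts per implied length and leaving out each library. The range and length steps were tested on simulated data. Named genes were the 10 members, up to 4 genes of each list by median FPKM, and the 5 genes most like the C1q chains; 1 gene this rule names is not reported here. C1r, C1s, Msr1, Ephb2, Epha8, Heph, Spic, Folr2, Cd5l, Dnase2, Csf1r, Mertk, Calcr, Ocstamp and Vcam1 were named after their values were seen. The members and lists were chosen with earlier results of these data known. Total counts of 39990624 to 59200981 set the precision.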

Additional observations from a re-analysis of the deposited data

How the results depend on the processing

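No paired analysis was possible because the labels give no groups and the result comes from no test. The count of genes with a range of 1 or more was 3 in the deposited values, 0 after length correction and 5 with a pseudocount of 0.1, where Vsig4 and Siglec1 were added, and 1 to 3 when each library was left out. The lowest of these, 1 (Cd163), came without S10. The number of expressed genes among the 10 was 7 under TMM and median-ratio factors and without each library. Without each library in turn, the median ratio of C1qa to C1qb was 1.62 to 1.70. That of C1qc to C1qb was 1.21 to 1.24 and that of C1qa to C1qc 1.34 to 1.36. Counts per implied length gave medians of 1.66, 1.22 and 1.35, but this is no separate check. The implied length was itself taken from count and FPKM, so the FPKM ratios return nearly unchanged. Without S12 the range of C1qb was 0.43 in place of 0.81 and that of C1qc 0.50 in place of 0.84, and without S10 the range of Cd163 was 1.10 in place of 1.72. With no FPKM minimum the share of all rat Ensembl genes with a range of 1 or more was 20.5%. The length correction is made on the log2(FPKM + 1) scale, where it can shift genes near 0 by more than their own level, so it was not read for Siglec1, Vsig4 and Marco beyond the count. Depth limits Marco, with 0 counts, and Vsig4, with 28 to 126.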

Other observations

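Among expressed genes of the other lists, chosen for mention after their values were seen, Spic, a transcription factor gene of iron-recycling macrophages, was the most like the C1q chains over the 6 libraries, with a root mean square difference of 0.15 log2 units and rank 26 of 11625. Folr2, a folate receptor gene of resident macrophages, followed at 0.18 and rank 72. Cd5l, a secreted macrophage protein gene, had 0.23 and rank 374, after Cd74 (rank 232), the endothelial gene Emcn (rank 317) and Dnase2 (rank 358). Spic had 12.02 FPKM in S12 and 6.75 in S23, Folr2 13.7 in S12 and 7.13 in S23, and Cd5l 54.999 in S12 and 36.3 in S23. All 3 thus had the same extreme libraries as C1qb and C1qc. After length correction the ranks were 127, 496 and 163, and Mertk, a receptor gene for the uptake of dying cells, moved from rank 3021 to 101. In contrast Tyrobp and Csf1r, shared with monocytes and other myeloid cells, ranked 10122 and 9743 in the deposited values and 10323 and 8054 after length correction. These ranks describe 6 libraries that share the same scaling, and no test was made of them.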
